A study of Oncorhynchus kisutch with 226 samples.

Results

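The 54 juvenile coho salmon (Oncorhynchus kisutch) that the submitters labelled as river smolts were compared by body condition, 26 of high and 28 of low condition factor, out of 226 fish in the series. Condition factor was taken as 100 times total mass in grams over the cube of fork length in centimetres. Fish above the median of their own set of catch area and origin formed the high class, and fish at or below it formed the low class, so the classes were set from body measurements and not from liver RNA. The series measured liver RNA on 2-colour microarrays, 1 fish per array, at 6 labelled stages: 8 parr, 54 smolts, and 14 spring, 67 summer, 71 fall and 12 winter ocean fish. All fish carried 1 dye and were hybridised against 1 pool of all liver samples, which carried the other.

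The smolts came from 6 sets, all caught in fresh water. The hatchery sets were Capilano with 5 high and 5 low fish, Chehalis with 4 high and 5 low, and Puntledge with 5 high and 5 low. The wild sets were Capilano with 5 high and 5 low, Chilliwack with 4 high and 4 low, and Salmon River, the catch area labelled salmon, with 3 high and 4 low. Chilliwack fish were caught in 2008 and the other 5 sets in 2009, so year and set cannot be told apart for Chilliwack. The labelled stock was S_Main in both Capilano sets, Fraser in Chehalis and Salmon River, ECVI in Puntledge and Chilliwack_R in Chilliwack. Stock did not vary within a smolt set. Outside the smolts, all parr were Chilliwack hatchery fish of 2008 with the stock label Chilliwack_R. All spring ocean fish were wild fish of 2009 from the area labelled south_SoG, with stocks labelled ECVI, Fraser, Chilliwack_R and Puget_Sound. The sex of parr and spring fish was labelled unknown. No treatment is given in the labels. Sex was labelled for a minority: the high class held 5 males, 3 females and 18 fish of unknown sex, and the low class held 5 males, 4 females and 19 unknown.

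Smolts are salmon that change in body form, salt handling and metabolism before they migrate from river to sea. They become slimmer and draw on stored fat in that change, so that condition factor, a measure of mass for length, is commonly followed through it. The liver makes and exports lipoproteins, stores glycogen and answers growth hormone with insulin-like growth factor. In bulk liver, fewer cells of a type and less RNA per cell cannot be told apart. The probes were identified by spot position alone and were not paired with genes in the sources used here, so no gene, pathway or cell marker is named, and the liver label was not checked against its markers.

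Condition factor was 1.11 ± 0.0949 in high smolts and 1.01 ± 0.0755 in low smolts (SD, n = 26 and 28), and it lay between 0.966 and 1.3 in the high class and between 0.875 and 1.13 in the low class. The classes overlapped over the whole series of smolts because the sets differed in level. Within sets the mean gap between classes was 0.128 in Puntledge hatchery, 0.115 in Capilano hatchery, 0.0864 in Chehalis hatchery, 0.0836 in Chilliwack wild, 0.0819 in Capilano wild and 0.0558 in Salmon River wild. The split was a fine one for the fish nearest it. The lowest high fish and the highest low fish had factors of 1.15 and 1.13 in Capilano hatchery, 0.978 and 0.97 in Capilano wild, and 0.966 and 0.959 in Salmon River. In Chilliwack they had 1.05 and 1.04. In Chehalis both rounded to 1.09, and in Puntledge both rounded to 1.1.

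Fork length did not follow the classes in the same way in every set. In Salmon River every high fish was longer than every low fish, at 11.5 to 12.0 cm against 8.7 to 10.9 cm. In Chehalis every high fish was shorter, at 10.7 to 11.5 cm against 11.6 to 12.2 cm, and in Chilliwack too, at 9.0 to 9.9 cm against 10.3 to 12.1 cm. In these 3 sets condition factor and body length cannot be told apart by class. Over all sets fork length averaged 11.2 ± 1.7 cm in high and 11.3 ± 1.02 cm in low smolts, a within-set difference of -0.0826 cm (two-sided permutation of classes within sets, p = 0.774). Total mass averaged 16.8 ± 8.52 g in high and 15 ± 4.57 g in low smolts, a within-set difference of 1.74 g (p = 0.19), which was 2.9 g without Chilliwack (p = 0.036) and 0.154 g without Puntledge (p = 0.886).

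**Figure D1:**
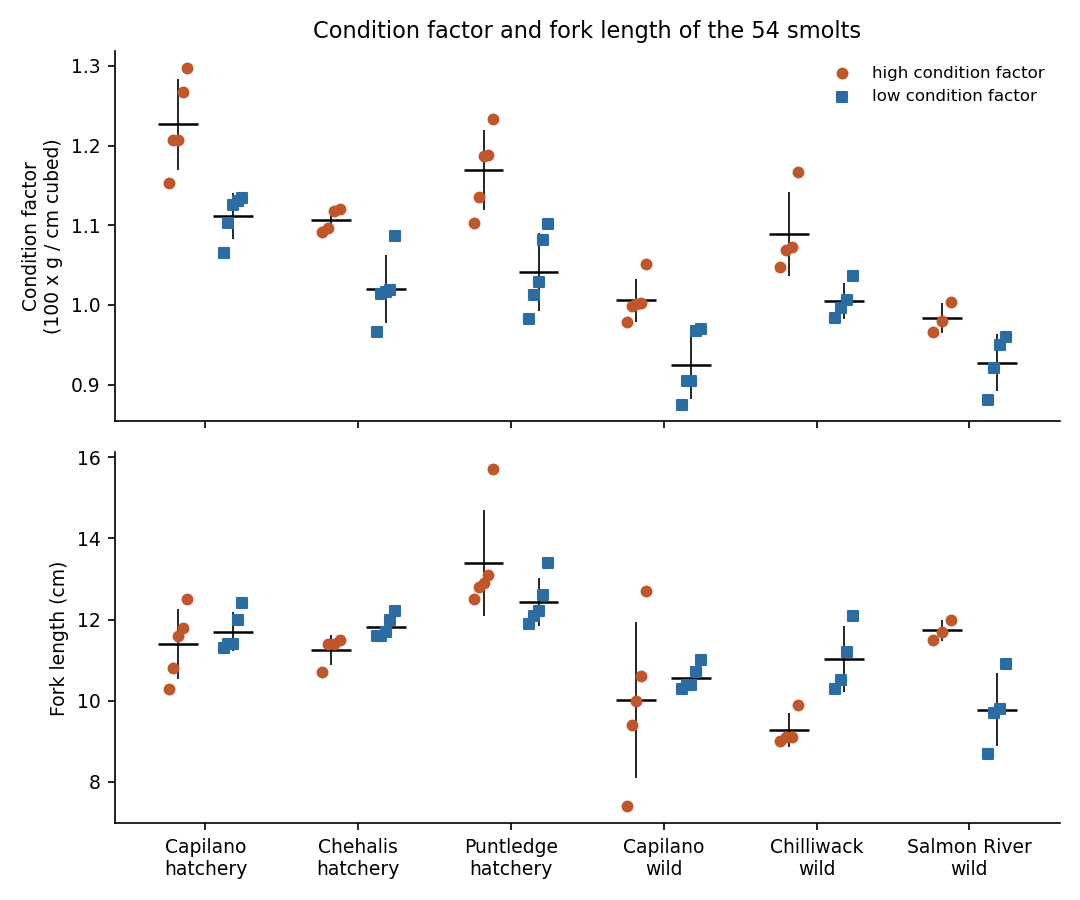
Condition factor (top, 100 times grams per cubic centimetre of fork length) and fork length (bottom, cm) of each smolt by set, with high fish left of low fish. Points are fish, horizontal bars are class means and vertical lines are ± 1 SD. The classes part in condition factor within every set by construction, whereas in length the high fish lie above the low fish in Salmon River and below them in Chehalis and Chilliwack.

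Each array gave between 12917 and 26755 measured probes in high smolts and between 14640 and 27490 in low smolts. Of 43567 probes, 15955 were measured on at least 80% of the smolt arrays and were tested. Array pairs correlated between r = -0.394 and 0.856 over 8942 probes measured on every smolt array, with 5 of 1431 pairs below -0.3. Values are log2 ratios, likely of fish over pool, so that "higher" would read "lower" if the numerator were the pool. Fish 1547 and 1548, both low Capilano wild smolts, shared the same length and mass in the labels. Their arrays correlated at r = 0.56, which ranked 227 among all 1431 pairs. The median over pairs of the same set and class was 0.561. Both fish were kept.

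No probe passed the test of high against low smolts when all 54 fish were compared with the set as a covariate. Of 15955 probes, 0 passed (0.0%) in limma at an adjusted p (Benjamini-Hochberg) below 0.05, the threshold for a called probe. An unadjusted p below 0.05 was reached by 463 probes, or 2.9%. The lowest adjusted p was 0.413. Fitted differences lay between -0.757 and 1.01, and 74 probes reached 0.5 in size. The median difference was 0.02, with 57.2% of probes above 0 and a median standard error of 0.14. The 95% interval of the difference lay inside ±0.5, a 1.41-fold change, for 12024 probes (75.4%), and inside ±1, a 2-fold change, for 15763 probes (98.8%).

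The same fit called 11766 of the 15955 probes (73.7%) for any difference among the 6 sets. Most slides held smolts of 1 set alone, but every set lay on several slides. The fit took the slide as a random block, and the correlation within slides was low. The share of the slide in the differences among sets was not tested. The set accounted for a median of 32.4% of a probe's variance among smolts, and the class for a median of 0.83% of what remained within sets. The shares have different bases, the set is fitted with more means than the class, and their levels by chance were not computed. Profiles of fish correlated more within sets than between them. Fish of 1 set correlated at a median r of 0.561 when they shared a class and 0.544 when they did not. For fish of different sets the median was 0.185 in the same class and 0.182 in different classes. These correlations describe pairs that share fish and are not a test.

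Condition factor as a number, with the set as a covariate, also gave 0 calls among 15955 probes (0.0%) in limma. An unadjusted p below 0.05 was again reached by 463 probes, and the lowest adjusted p was 0.839. The probe with the lowest p among positive slopes was C199R054, at 0.34 per 0.1 of condition factor (SE 0.1, adjusted p = 1). C199R054 averaged 0.10 ± 0.57 in high and -0.31 ± 0.57 in low smolts (SD, n = 26 and 28), with the high mean above the low mean in 6 of 6 sets. Among negative slopes it was C003R090, at -0.39 per 0.1 (SE 0.09, adjusted p = 0.839). C003R090 averaged -0.12 ± 0.49 in 23 high smolts and 0.20 ± 0.40 in 26 low smolts that had a value. Its high mean lay above its low mean in 0 of 6 sets. Among probes with a fitted difference in every set, 188 (1.18%) were higher in high fish in 6 sets and 173 (1.08%) in 0 sets. Both named probes were picked by the slope in these same fish. Neither probe passed the test, and with the slide as a fixed block the slope of C199R054 was 0.18 (adjusted p = 1). Without the set as a covariate both passed, C199R054 at 0.31 (adjusted p = 0.00847) and C003R090 at -0.36 (adjusted p = 0.000548), among 3313 called probes, and the difference between sets was then part of the slope.

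The shares of probes with a small p differed between sets. In limma's fit of the 12 set-by-class means, which pools the spread of all sets, an unadjusted p below 0.05 was reached by 1802 of 15947 probes (11.3%) in Chilliwack wild and 1059 (6.64%) in Salmon River wild. It was reached by 940 (5.89%) in Puntledge hatchery, 329 (2.06%) in Capilano hatchery, 314 (1.97%) in Chehalis hatchery and 241 (1.51%) in Capilano wild. The spread was not estimated for each set, and under a pooled spread a set whose fish vary more would get smaller p-values. The shares thus do not rank the sets by class difference. After adjustment 7 of 15947 probes (0.0439%) were called in Salmon River, all higher in high fish, and 0 (0.0%) in each of the other 5 sets. The lowest adjusted p was 0.0703 in Chilliwack, 0.0886 in Puntledge, 0.142 in Chehalis and 1 in both Capilano sets.

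**Figure D2:**
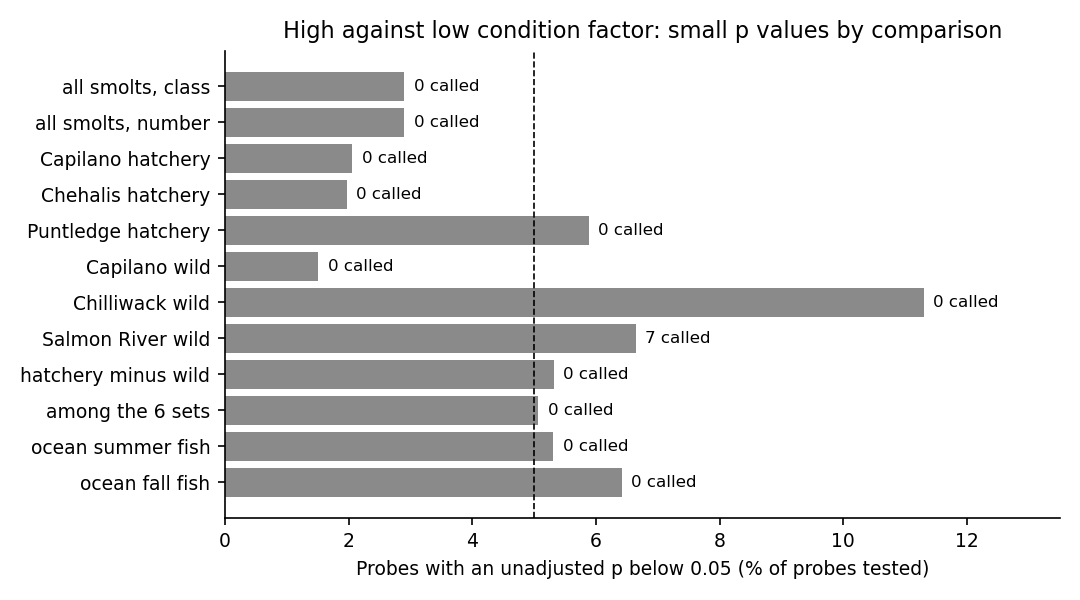
Percentage of tested probes with an unadjusted p below 0.05 for high against low condition factor, by comparison. The dashed line marks 5%, and the number at each bar counts called probes. Bars of single sets rest on a spread pooled over sets and do not rank the sets. The pooled comparison of all smolts lies at 2.9%, the 2 Capilano sets at 2.06% and 1.51%, and Chilliwack wild at 11.3%.

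The probe with the lowest p in the pooled comparison, C121R128, was 0.75 higher in high smolts (SE 0.16, adjusted p = 0.413), so it did not pass. Its ratio averaged -0.44 ± 0.77 in high and -1.21 ± 0.82 in low smolts (SD, n = 26 and 28). It had a higher mean in high fish in 6 of 6 sets, by 0.292 to 1.21, a pattern that 188 probes (1.18%) showed. With the values centred on the set mean, 20 of 26 high and 8 of 28 low fish lay above 0. C121R128 was picked by the class difference in these same fish. How many probes showed such counts was not computed.

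By fish, C121R128 separated the classes in 1 set and overlapped in the others, and how many probes did so was not counted. In Capilano wild it was 0.21, 0.49, 0.53, 0.58 and 1.01 in high fish and -2.17, -0.63, -0.27, -0.26 and 0.09 in low fish, with no overlap. In Capilano hatchery it was -1.85, -1.27, -0.91, -0.57 and 0.12 in high fish and -2.56, -1.80, -1.68, -1.42 and -1.13 in low fish. Here 3 high fish lay above every low fish. In Puntledge it was -1.43, -0.66, -0.55, -0.13 and 0.20 in high fish and -2.61, -1.78, -1.77, -1.17 and -0.97 in low fish, and 4 high fish lay above every low fish. In Chehalis it was -0.88, -0.78, -0.68 and -0.09 in high fish and -1.55, -1.39, -0.80, -0.74 and -0.10 in low fish. In Salmon River it was -1.67, -1.49 and -1.19 in high fish and -2.23, -1.90, -1.54 and -1.31 in low fish. The classes interleaved in both of these sets.

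In Chilliwack C121R128 was -0.53, -0.23, 0.02 and 0.37 in high fish and -1.45, -0.97, -0.53 and 0.85 in low fish. The highest value of that set belonged to a low fish, number 93. With fish 93 left out, C121R128 had an adjusted p of 0.0394 and was the single probe called in the pooled comparison. Leaving out any other fish gave 0 calls. Over the 54 leave-one-fish-out fits its difference stayed between 0.67 and 0.81.

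**Figure D3:**
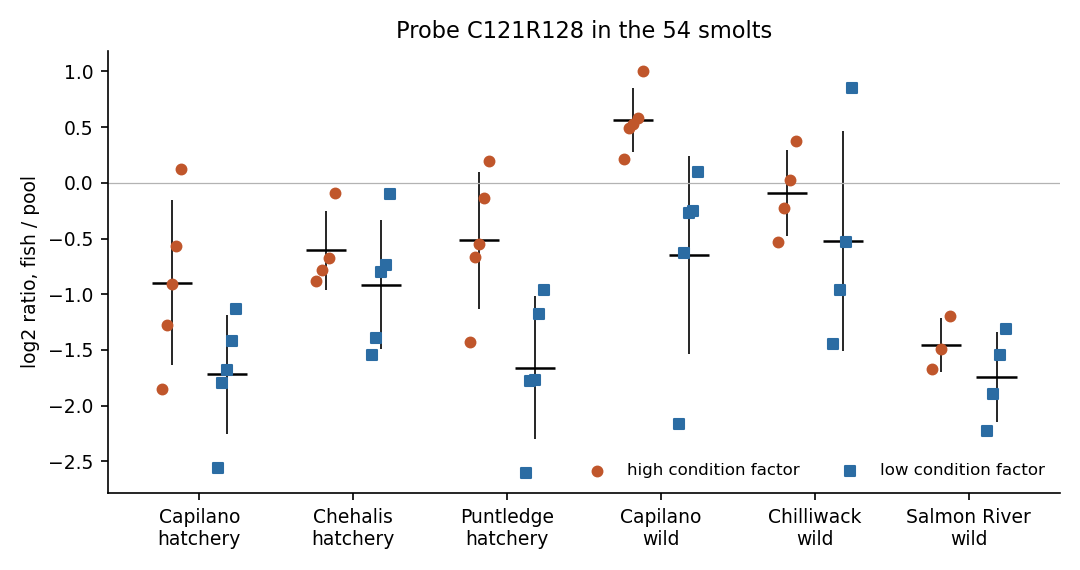
Log2 ratio of probe C121R128 in each of the 54 smolts by set, with high fish left of low fish. Points are fish, horizontal bars are class means and vertical lines are ± 1 SD. The high mean lies above the low mean in 6 of 6 sets, and the classes do not overlap in Capilano wild.

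Across stages, C121R128 averaged 0.51 ± 0.42 in the 8 parr and -0.84 ± 0.88 in the 54 smolts (SD). Ocean means were -0.39 ± 0.73 for the 14 spring fish, -0.34 ± 0.79 for the 67 summer fish, -0.60 ± 0.80 for the 71 fall fish and -0.60 ± 0.42 for the 12 winter fish. The high smolts' mean of -0.44 lay within the range of the ocean means. The low smolts' mean of -1.21 lay below the parr mean and every ocean mean. These stage levels are a description and were not tested. The parr were all Chilliwack hatchery fish and the spring fish all wild fish of a single area and year. In these means stage cannot be told apart from origin, area and year for them, and matched fish were not compared.

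In the opposite direction the lowest p belonged to C029R084, at -0.76 (SE 0.2, adjusted p = 1). It averaged 0.37 ± 0.58 in high and 1.11 ± 0.88 in low smolts (SD, n = 22 and 23), since 9 smolts had no value. In Chilliwack it was -0.49, -0.36, 0.33 and 0.92 in high fish and 1.04, 1.22, 2.35 and 2.97 in low fish. In Puntledge it was -0.08, 0.06, 0.47, 0.47 and 0.55 in high fish and 0.60, 0.66, 1.36, 1.44 and 1.94 in low fish. The classes did not overlap in these 2 sets, while its high mean lay above its low mean in 1 of 6 sets, a count that 1101 probes (6.9%) shared. C029R084 was picked by the class difference in these same fish. How many probes parted the classes in these 2 sets was not counted. With the slide as a fixed block, which compares fish of 1 slide, the difference was -0.46 for C029R084 and 0.79 for C121R128, both at an adjusted p of 1. With 1 split of all smolts at their common median it was 0.44 for C121R128 (adjusted p = 1). Neither probe passed the test in these fits.

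Salmon River was the one set with called probes, and its 3 high fish were also its longest and heaviest, at 14.9 to 16.7 g against 5.8 to 12.3 g in low fish. The classes did not overlap for any of the 7 called probes, which were picked by the test of these same classes. How many of all 15947 tested probes parted the classes in this way was not counted. C038R110 was -1.29, -0.06 and 0.61 in high fish and -4.48, -4.25, -3.89 and -2.01 in low fish. The fitted difference of C038R110 was 3.43 (SE 0.73, adjusted p = 0.0493). C109R015 was 1.28 and 2.28 in the 2 high fish and -1.35, -0.90 and -0.59 in the 3 low fish that had a value. The fitted difference of C109R015 was 2.74 (SE 0.51, adjusted p = 0.0155). The other 5 called probes differed by 1.72 to 2.15 with adjusted p-values of 0.0123 to 0.0493 in the same limma fit, and all 7 had an adjusted p of 1 in the pooled comparison.

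**Figure D4:**
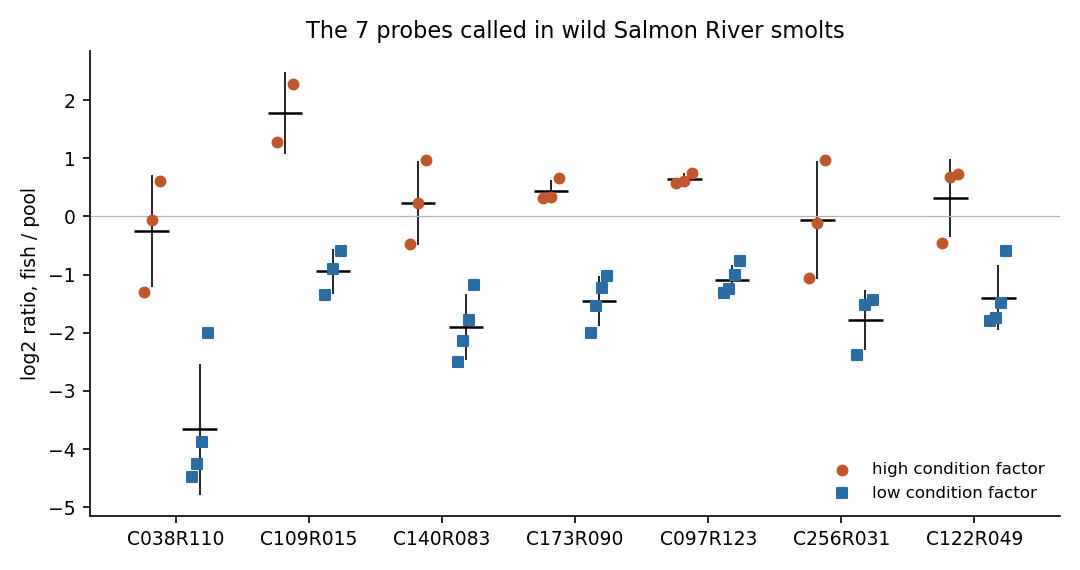
Log2 ratios of the 7 probes called in wild Salmon River smolts, with high fish left of low fish for each probe. Points are fish, horizontal bars are class means and vertical lines are ± 1 SD. The 7 probes were picked by the test plotted, and no high fish lies at or below a low fish.

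The number of these calls changed with single fish. Without low fish 1436 there were 0 calls, and without low fish 1438 there was 1. Without high fish 1434 there were 7, of which 4 were higher and 3 lower in high fish. Leaving out high fish 1440 gave 11 calls, low fish 1441 gave 12, low fish 1443 gave 12 and high fish 1442 gave 21. C038R110 was called in 2 of these 7 fits, with adjusted p-values of 0.0197 to 0.345, and C109R015 in 4 of 7, with 0.0131 to 0.232. With fork length as a covariate, an alternative chosen after the data were examined that takes 1 slope for all sets, 18 probes were called in Salmon River, 16 of them higher in high fish. There were 4 calls without the slide block, 4 with probes measured on all 54 arrays, 4 with probes on at least 50% of them and 3 with probes on at least 80% of all 226 arrays. Over the settings that kept all fish and tested the probe, the reported one included, C038R110 was called in 5 of 8, with adjusted p-values of 0.0138 to 0.065, and C109R015 in 6 of 7, with 0.00775 to 0.114.

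The fitted high-minus-low difference of C038R110 lay between -1.80 and 1.11 in the other sets, above 0 in 4 of 5, and passed the test in none of them. In Chilliwack, where the high fish were the shorter ones, C038R110 averaged -1.76 ± 1.5 in high and 0.03 ± 1.09 in low fish (SD, n = 4 each). In Chehalis, where the high fish were also shorter, it averaged 2.73 ± 1.28 in high and 1.63 ± 0.51 in low fish (n = 4 and 5). C038R110 varied widely over the stages, at 4.18 ± 1.25 in parr and 0.14 ± 1.82 in 53 smolts, then -1.70 ± 1.32 for spring, -3.30 ± 1.17 for summer, -3.73 ± 0.96 for fall and -2.84 ± 1.71 for winter ocean fish. In these means stage cannot be told apart from origin, area and year for parr and spring fish, and matched fish were not compared.

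**Figure D5:**
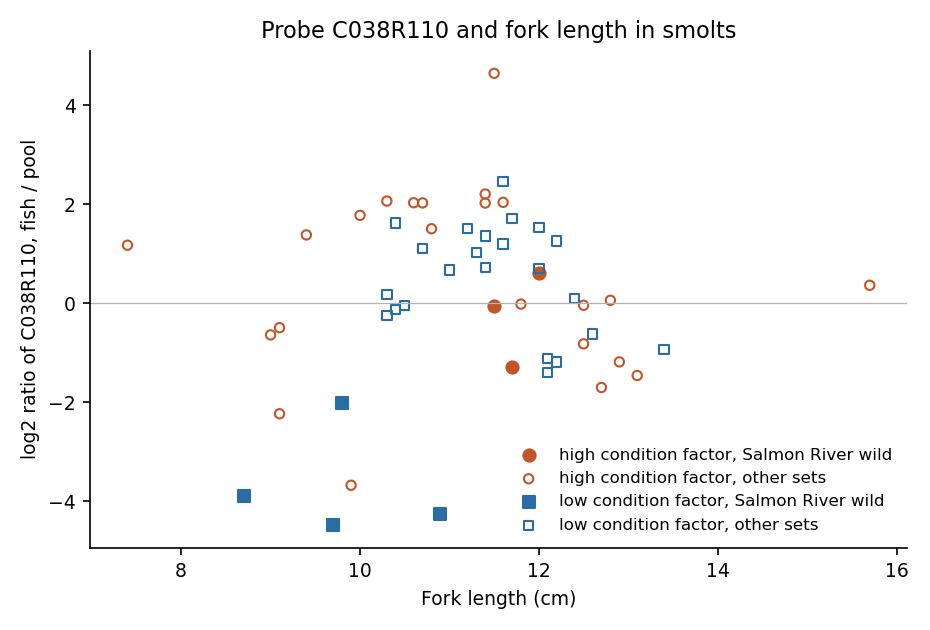
Log2 ratio of probe C038R110 against fork length (cm), with 1 point per smolt. Circles are high and squares are low fish, filled for Salmon River and open for the other sets. The 3 high Salmon River fish lie at 11.5 to 12.0 cm and the 4 low fish at 8.7 to 10.9 cm.

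In Chilliwack, the set with the highest share of small p-values, 0 of 15947 probes were called with all 8 fish, and 408 without low fish 99, of which 268 were higher and 140 lower in high fish. Without high fish 96 there were 2 calls, and without any other fish 0. With all 8 fish, there were 2 calls with the slide as a fixed block, 1 after quantile normalization and 3 with probes measured on at least 50% of the arrays. C123R001 and C009R121 had the lowest p in each direction in this set, so both were picked by the test of these same classes. How many of all 15947 tested probes parted the classes was not counted. C123R001 was -0.37, -0.05, 0.17 and 0.46 in high fish and 1.08, 1.74, 2.34 and 2.61 in low fish. The classes of C123R001 did not overlap, and fish 99 was the low fish nearest to the high ones. Its difference was -1.91 (SE 0.37, adjusted p = 0.0703 with fish 99 and 0.00648 without it). C009R121 was 1.64, 1.96, 2.47 and 2.79 in high fish and 0.62, 0.73, 0.92 and 1.10 in low fish. The classes of C009R121 did not overlap either, and its difference was 1.36 (SE 0.31, adjusted p = 0.117 with fish 99 and 0.0156 without it). Whether fish 99, the slide, the length gap or the condition factor set these numbers was not tested.

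In Puntledge the lowest p-values belonged to C026R007 and C236R058, and neither passed. C026R007 was 0.13, 0.81, 0.83, 0.92 and 0.94 in high fish and -1.30, -1.26, -0.74, -0.13 and 0.10 in low fish, a difference of 1.39 (SE 0.27, adjusted p = 0.0886). C236R058 was -1.43, -0.72, -0.70, -0.26 and 0.25 in high fish and 0.53, 0.77, 0.88, 1.00 and 1.57 in low fish, a difference of -1.53 (SE 0.35, adjusted p = 0.386). The classes of both probes were apart, C026R007 by a narrow gap between 0.13 and 0.10. Both were picked by the test of these same fish, and how many probes parted the classes was not counted. Leaving out fish 1693 gave 7 calls in this set, leaving out fish 1684, 1686, 1688 or 1692 gave 1 each, and leaving out any of the others gave 0.

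In Chehalis, C240R142 was -1.204, -0.77, -0.26 and 0.82 in high fish and -2.97, -2.76, -1.87, -1.82 and -1.52 in low fish, a difference of 1.85 (SE 0.37, adjusted p = 0.142). Every high fish lay above every low fish, but C240R142 was picked for its low p in these same fish. How many probes parted the classes was not counted. Leaving out high fish 1617 gave 3 calls in this set, leaving out high fish 1623 gave 4, and leaving out any other fish gave 0. In the other direction C009R151 averaged -0.21 ± 0.77 in high and 0.67 ± 0.17 in low fish (SD, n = 4 and 5; adjusted p = 1). In Capilano hatchery, C141R015 was -2.13, -0.37, -0.30, -0.27 and 0.69 in high fish and -3.01, -2.81, -2.74, -2.48 and -0.21 in low fish, a difference of 1.76 (SE 0.47, adjusted p = 1). The classes of C141R015 overlapped through 1 low fish, which lay above 4 of the high fish. In the other direction C170R024 averaged -0.31 ± 0.32 in high and 0.52 ± 0.38 in low fish (SD, n = 5 each; adjusted p = 1).

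In Capilano wild the lowest p belonged to C108R116, which was 1.204, 1.505, 1.66, 1.90 and 2.29 in high fish and -2.18, -2.07, -1.42, 0.60 and 1.75 in low fish. The difference was 2.36 (SE 0.61, adjusted p = 1), and 1 low fish lay among the high ones. Labelled sex moved with class in this set: the 2 high fish with a label were males and the 2 low fish with a label were females. The 2 males had 1.66 and 1.90 and the 2 females had -2.18 and -2.07. Among all smolts with a sex label and a value, C108R116 ran between -1.16 and 1.90 with a median of -0.34 in 9 males, and between -2.18 and 0.03 with a median of -1.02 in 7 females. These ranges overlap, include the Capilano wild fish just given and mix sets. In Chehalis alone, males lay between -1.16 and -0.53 and females between -1.36 and 0.03. The part of sex in the Capilano difference was not tested. In the other direction C237R030 averaged -0.52 ± 0.28 in high and 0.27 ± 0.41 in low fish (SD, n = 5 each; adjusted p = 1).

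The class difference was next compared between hatchery and wild sets, and among all 6. The hatchery difference minus the wild difference gave 0 calls among 15947 probes (0.0%) in limma, with 849 probes (5.32%) at an unadjusted p below 0.05 and a lowest adjusted p of 0.291. The probe with that p was C029R042, at -0.999 (SE 0.21). In Capilano hatchery C029R042 was -0.59, -0.31, -0.21, -0.04 and 0.06 in high fish and 0.09, 0.09, 0.13, 0.23 and 0.33 in low fish. In Salmon River wild it was 0.21, 0.40 and 0.44 in high fish and -0.39, -0.18, -0.09 and 0.01 in low fish. The classes were apart in both, in opposite directions. They overlapped in Chehalis, Puntledge, Capilano wild and Chilliwack, and C029R042 did not pass the test. C029R042 was picked by the test of these same fish, and how many probes parted the classes was not counted. In the other direction C220R046 reached 0.78 (SE 0.19, adjusted p = 0.532). A moderated F test of unequal class differences among the 6 sets also gave 0 calls (0.0%), with 808 probes (5.07%) at an unadjusted p below 0.05 and a lowest adjusted p of 0.14. With the slide as a fixed block there was 1 call for hatchery minus wild and 2 for the F test, and quantile normalization gave 1 for the F test. The calls in Salmon River were not shown to be particular to that set.

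Whether a probe gave a value at all was compared for 9579 sparse probes, those measured on 20% to 80% of smolt arrays. The exact test stratified by set gave 0 calls (0.0%), with 144 probes (1.5%) at an unadjusted p below 0.05. The median sparse probe was measured in 46.2% of high and 46.4% of low fish. The lowest p-values belonged to C177R166, measured in 1 of 26 high and 10 of 28 low fish (two-sided exact p = 0.0022, adjusted p = 1), and C191R057, measured in 20 of 26 high and 11 of 28 low fish (exact p = 0.0057, adjusted p = 1).

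Whole-array measures did not part the classes either. High smolts had 20717 ± 3452 measured probes and low smolts 21307 ± 2916, a within-set difference of -604 (permutation p = 0.475). The first 3 principal components of the ratios centred on set means held 30.2%, 14.4% and 6.2% of the variance within sets, and their within-set differences had permutation p-values of 0.629, 0.99 and 0.162. Correlation with the mean parr profile was 0.281 ± 0.168 in high and 0.266 ± 0.163 in low smolts (p = 0.715). Correlation with the mean ocean spring profile was 0.189 ± 0.335 in high and 0.216 ± 0.32 in low smolts (p = 0.616). Both mean profiles carry the origin, area and year of their fish as well as the stage. Over these 8 measures, with length and mass, the lowest adjusted p was 0.76.

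Ocean fish of the Strait of Georgia caught in 2009 were split by the same rule, within 5 sets per season. The sets were hatchery or wild fish of 1 area and held both sexes. Unlike the smolt sets, they mixed stocks, which were labelled ECVI, Fraser and S_Main. Whether class followed stock or sex within these sets was not tested. A pair of wild summer fish from the area labelled mid_SoG shared the same length and mass in the labels, and both were kept. In summer, condition factor was 1.25 ± 0.0609 in 21 high and 1.15 ± 0.0818 in 25 low fish, and 0 of 17634 probes (0.0%) were called in limma, with 936 (5.31%) at an unadjusted p below 0.05. In fall, condition factor was 1.28 ± 0.0402 in 22 high and 1.18 ± 0.0461 in 23 low fish, and 0 of 17662 probes (0.0%) were called, with 1134 (6.42%) at an unadjusted p below 0.05. C121R128 differed by 0.18 in summer (adjusted p = 0.926), with -0.26 ± 0.76 in high and -0.42 ± 0.84 in low fish. In fall C121R128 differed by 0.65 (adjusted p = 0.7), with -0.09 ± 0.81 in high and -0.73 ± 0.74 in low fish. Neither value passed the test after adjustment over all probes, and the smolt and ocean differences were not tested against each other.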

How the data were processed

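Liver RNA of 226 fish was measured on 2-colour arrays with 1 fish each. RNA was extracted with magnetic beads, amplified and coupled to an Alexa dye, per the labels, and the common pool to another. The authors deposited 1 log2 ratio per probe and array. Scanner, normalization and the rule by which 51.7% of smolt cells stand empty are not stated in the labels. Neither base nor numerator is stated: ratios ran between -9.72 and 9.86 with array medians of -0.014 to 0.056, and the slope of probe mean on variance was -0.364 against -0.347 for base 2 and fish over pool, so this reading is likely and not certain. The scale was kept as deposited. A second table of the series held the same values and was not used. No value column lacked a sample (0 columns).

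Ratios were fitted with lmFit and eBayes (limma 3.58.1, R 4.3.3) with the set as a covariate and the slide as a random block (correlation 0.033 over 3000 drawn probes). Of 23 slides with smolts, 14 held both classes. Set-by-class differences came from 1 fit of 12 means, with 15947 probes that had a value in every mean. Probes on at least 80% of the 54 arrays, with at least 3 fish per class, were tested, and probes with p below 0.05 after Benjamini-Hochberg adjustment over all of them were called. Body and whole-array measures were tested by 100000 permutations within sets (numpy 2.4.6, Python 3.11.15), and detection by an exact test stratified by set (scipy 1.17.1). The fits were tested on simulated data. Each fish is a separate sample by its label, and the number of arrays limits the precision. A value of ± is an SD.

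Comparisons, lists and alternatives were chosen with earlier results of these data known. Where a comparison had called probes, at most the 2 largest per direction were named, and otherwise the probe with the lowest p in each direction. The gene lists fixed with the design and the cell markers could not be applied, since no probe is paired with a gene in the sources used here. Alternatives were the slide, the normalization, the filter on empty cells, covariates, the class definition and leaving out sets or fish.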

Additional observations from a re-analysis of the deposited data

Results flagged for a closer look

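In 8 of 107 groups of 4 or 5 fish, 1 fish lay far from the others of its set and class by Dixon's test, against about 1 in 20 by chance. Fork length stood apart in 3 groups of high fish. It was 10.7 cm in Chehalis fish 1623, against 11.4 to 11.5 cm in the others. It was 9.9 cm in Chilliwack fish 101, against 9.0 to 9.1 cm. It was 15.7 cm in Puntledge fish 1689, against 12.5 to 13.1 cm, and the same fish weighed 45.99 g, against 21.54 to 26.69 g. Probe C003R090 was -1.7544 in high Capilano hatchery fish 1531, against -0.4129 to -0.3102. Probe C026R007 was 0.1285 in high Puntledge fish 1686, against 0.8074 to 0.9416. Probe C141R015 was -0.2088 in low Capilano hatchery fish 1530, against -3.0134 to -2.476. Probe C199R054 was 0.421 in high Chehalis fish 1618, against 0.2656 to 0.2812.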

How the results depend on the processing

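The pooled comparison of high and low smolts had 0 calls in 74 of 75 alternatives, and condition factor as a number in 71 of 72. The exceptions were the fit without fish 93, and 3313 calls for the number without the set covariate. Leaving out single fish gave 0 to 1 calls in the pooled comparison, 0 to 4 in Chehalis, 0 to 7 in Puntledge, 0 to 408 in Chilliwack and 0 to 21 in Salmon River. Salmon River had 4 calls without the slide block, 4 with probes measured on all 54 arrays, 4 with probes on at least 50% of them, 3 with probes on at least 80% of all 226 arrays, and 18 with fork length as a covariate, the last chosen after seeing the data. With the slide as a fixed block there was 1 call in Capilano wild, 1 for hatchery minus wild and 2 for the F test. That fit took the Chilliwack difference from low fish 94 alone against high fish 95, 96 and 98. The same difference entered its counts for hatchery minus wild and the F test. Quantile normalization gave 1 call in Chilliwack and 1 for the F test, probes on at least 50% of arrays gave 3 in Chilliwack, and a covariate for how many probes an array measured, also added later, gave 1 for the F test. The cause of these changes was not tested.

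The within-set difference in fork length became 0.022 cm without Capilano wild, 0.014 cm without Chehalis and 0.209 cm without Chilliwack. The difference in mass was 2.9 g without Chilliwack (permutation p = 0.036). The difference in the second principal component became 0.000869 without Capilano hatchery, 0.00331 without Capilano wild and 0.0705 without Chilliwack. That in correlation with parr, a measure added later, became -0.00501 without Capilano hatchery and -0.000334 without Chehalis. The cause was not tested. Of 503 values of named probes under alternatives, 0 turned in sign, 13 gained a call and 12 lost one. These probes were picked by fits of the same fish, and many alternatives left out 1 fish alone. A turn in sign was therefore unlikely in advance. A split by the residual of log mass on log length put all 54 fish in the same classes, and 1 split at the common median put 39 there. The second deposited table was not run, since its values were the same. No paired analysis was possible because each fish has its own number and the classes share none.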
